A study of Equus caballus with 24 samples.

Results

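F13A1 encodes the A chain of coagulation factor XIII and was read here as the single identifier ENSECAG00000008295, 1 of 30371 genes listed in each library. The study reports the gene as higher in allergic than in healthy horses in both phases. This is the only identifier that carries the values printed for F13A1 in Remission. The gene was thus chosen by this contrast, so the levels of the groups are a description and were not tested. RNA came from IgE-binding monocytes, sorted from the blood of Icelandic horses as cells with low CD14 and high MHC class II. The 7 allergic horses had Culicoides hypersensitivity, an allergy to the bites of midges, and the 5 healthy horses shared their pasture and their exposure. Each horse gave a library in the “Remission Phase”, in winter without midges, and another in the “Clinical Phase”, in late summer, which makes 24 libraries in 4 groups. Phase, season and sampling period cannot be told apart in this design. Allergic horses were on the whole older and included a gelding, while all healthy horses were mares, so age and sex are not balanced between the groups.

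Factor XIII is the transglutaminase that acts last in the coagulation cascade. Thrombin and calcium activate its A chains, which then join neighbouring fibrin strands by covalent bonds and attach inhibitors of fibrinolysis to the clot. In plasma the A chains are carried by B chains, which come from the liver, whereas the A chain is made by cells of the bone marrow lineage, among them monocytes, macrophages and megakaryocytes. Platelets also carry the A chain. In human monocytes and macrophages its transcript is a known marker of alternative activation by IL-4 and IL-13. In the reference gene table of the horse assembly TB-T2T, F13A1 is a protein-coding gene with NRN1 and LY86 as its nearest protein-coding neighbours.

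The sum of counts over genes ran from 17558184 to 40404429 per Remission library. Clinical libraries ran from 14493071 to 24832163, with a median of 19823848.5 against 28554227 in Remission. In A6 and H2 the Clinical library was the deeper one. Levels are given as CPM, the counts of a gene scaled to a common library total, with exact 95% binomial intervals that cover counting error only. The Remission library of allergic horse A6 stood apart from the others. It had counts on 11802 genes, against 12934 to 13877 in the other Remission libraries, and a TMM factor (the scaling of edgeR for library composition) of 0.73, against 0.90 to 1.11. The mean and spread of F13A1 in allergic horses, the comparison of phases and the r of the named identifiers are given with and without it.

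In the “Remission Phase”, F13A1 reached 90.0 CPM in horse A4, 53.2 CPM in A2 and 48.6 CPM in A5. The other allergic horses had 8.27 CPM in A1, 8.02 CPM in A7, 6.73 CPM in A3 and 5.52 CPM in A6. The allergic libraries thus lay in 2 separate clusters, with no library between 8.27 and 48.6 CPM. In healthy horses the level was 2.49 CPM in H1, 1.60 CPM in H2, 1.53 CPM in H4, 1.17 CPM in H6 and 1.03 CPM in H7. Every allergic library was above every healthy one, and the lowest allergic library, A6, was 2.22 times the highest healthy library, H1 (95% interval 1.64 to 3.0). Without A6 the lowest allergic library was A3. The counting intervals of A1, A3 and A7 overlapped each other, and so did those of H2, H4, H6 and H7, so the order within these horses is not resolved at this depth.

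In the “Clinical Phase”, horse A4 was again highest with 54.8 CPM, followed by A2 with 31.5 CPM and A5 with 27.3 CPM. Horses A6 and A7 had 21.6 CPM and 20.0 CPM, while A1 had 4.79 CPM and A3 had 3.12 CPM. The gap among allergic horses now lay between A1 and A7. Healthy horses had 2.49 CPM in H1, 2.35 CPM in H4, 1.92 CPM in H2, 1.39 CPM in H7 and 1.31 CPM in H6. Allergic libraries were again all above the healthy ones, but the lowest allergic library, A3, had 60 counts and was 1.25 times the highest healthy library, H1, with 50 counts (95% interval 0.847 to 1.86). Separation of these 2 libraries is therefore within counting error.

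**Figure D1:**
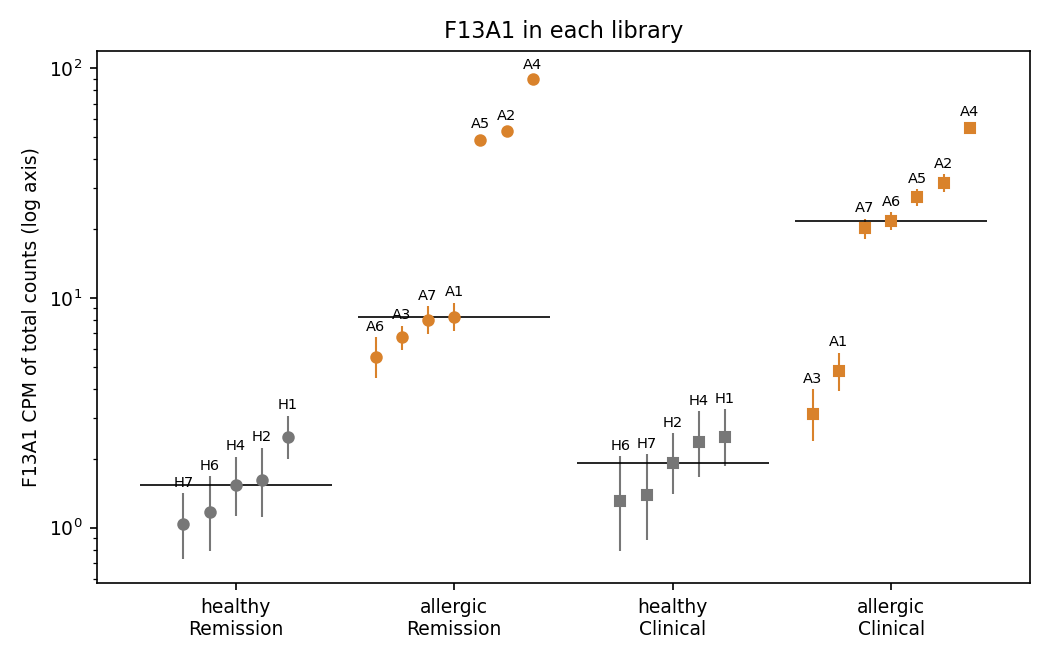
F13A1 in each of the 24 libraries as CPM of total counts on a log axis, by group, with horse codes, exact 95% binomial intervals (counting error only) and a black line at the group median. Allergic libraries (orange) span 5.52 to 90.0 CPM in Remission (circles) and 3.12 to 54.8 CPM in the Clinical Phase (squares), and healthy libraries (gray) stay at or under 2.49 CPM.

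Allergic horses had a mean of 31.5 ± 33.1 CPM (SD, n = 7) in Remission, when healthy horses had 1.57 ± 0.569 CPM (SD, n = 5). Clinical means were 23.3 ± 17.5 CPM (SD, n = 7) for allergic horses, beside 1.89 ± 0.537 CPM (SD, n = 5) for healthy horses. Allergic medians ran the other way, with 8.27 CPM in Remission and 21.6 CPM in the “Clinical Phase”. Without A6 the allergic mean in Remission was 35.8 ± 34.0 CPM (SD, n = 6) and the median 28.4 CPM. The direction of the medians between phases therefore turned without that library, but not because of that library in particular. The Remission median lay in the lower cluster of allergic libraries, and leaving out A1, A3 or A7 instead would also move it between the clusters. The log2 fold change of allergic over healthy horses from edgeR was 4.42 (SE 0.77) in Remission and 3.62 (SE 0.59) in the “Clinical Phase”, given as a description. Without horse A6 the Remission value was 4.59. Since the gene was selected on this contrast, its interaction with phase was not tested. Of 12670 genes kept in Remission, 31 (0.245%) had every allergic library above every healthy one, and of 13315 in the “Clinical Phase” 5 (0.0376%) did. Among the 12388 genes kept in both phases this held in both for 1 gene (0.00807%), which was F13A1 itself, and nothing is read from it because the choice of the gene used these groups. In bulk libraries, fewer cells of a type and less RNA per cell cannot be told apart, and whether the level lay in all sorted cells or in some of them was not measured.

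Levels of F13A1 were wider apart within the allergic group than within the healthy group. The highest allergic library was 16.3 times the lowest in Remission and 17.6 times in the “Clinical Phase”, against 2.41 and 1.90 times among healthy horses. On log2(CPM + 4), the SD over allergic libraries was 1.35 in Remission, and 26 of 12670 genes had a larger one. Without the A6 library the Remission range was 13.4 times, the SD 1.39, and 19 of 12562 genes had a larger SD. In the “Clinical Phase” it was 1.08, with 58 of 13315 genes above it. Allergic libraries also had the higher median SD over all genes, 0.25 in Remission and 0.20 in the “Clinical Phase”. Over healthy libraries, where the level is near the added constant of 4, the SD was 0.13 in Remission and 0.14 in the “Clinical Phase”, close to the medians of all genes, 0.13 and 0.18. The difference in spread between the groups was not tested.

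How the level of a horse moved between phases was not used to choose the gene. In 5 allergic horses F13A1 was lower in the “Clinical Phase”, and the ratios of Clinical over Remission were close to each other. They were 0.579 in A1 (95% interval 0.454 to 0.736), 0.593 in A2 (0.536 to 0.656), 0.463 in A3 (0.344 to 0.615), 0.609 in A4 (0.569 to 0.652) and 0.563 in A5 (0.509 to 0.621). These 5 intervals overlap, although the levels of the same horses ranged from 6.73 to 90.0 CPM in Remission. In A6 and A7 the level was higher in the “Clinical Phase”, by 3.91 times (3.15 to 4.91) and 2.50 times (2.11 to 2.97). No interval of an allergic horse included 1, and the directions were the same in all 7 horses with TMM, RLE and DESeq2 size factors. With TMM factors, which take the composition of the A6 Remission library into account, the ratio of A6 was 3.15. The 2 libraries of A6 were not alike as a pair over 9544 genes. Their deviations from group means correlated at -0.159, against 0.200 in A3 to 0.378 in A7 among the other allergic horses.

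For the allergic group as a whole, no difference between the phases passed the test, and the horses moved in both directions. The log2 fold change of Clinical over Remission was -0.42 (SE 0.54), with an adjusted p of 0.661 in edgeR, lower in 5 of 7 horses. In that comparison 1325 of 13597 genes (9.74%) passed an adjusted p of 0.05, and 726 did with horse as a block. The mean paired difference of log2(CPM + 4) was -0.13 ± 0.88 (SD, n = 7), with p = 0.688 in a two-sided exact sign-flip permutation test, whose smallest possible p is 0.0156. Without horse A6 it was -0.36 ± 0.69 (SD, n = 6), with an exact p of 0.219. With horse as a block the fold change was -0.21 (SE 0.29, adjusted p 0.707), and without the A6 Remission library it was -0.60 (adjusted p 0.552).

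In healthy horses the ratio of Clinical over Remission was 0.999 in H1, 1.20 in H2, 1.53 in H4, 1.12 in H6 and 1.35 in H7 with total counts, and each 95% interval included 1. With TMM factors all 5 horses had a ratio over 1, from 1.08 to 1.64. The log2 fold change was 0.38 (SE 0.74, adjusted p 0.885 in edgeR), and 182 of 13597 genes (1.34%) passed in that comparison, a count that was 126 with horse as a block, 523 in DESeq2 and 1440 in limma voom with quality weights. The exact sign-flip permutation test gave p = 0.0625, which is the smallest value that 5 pairs allow, so it cannot reach 0.05. With 19 to 86 counts per library, a change of this size in a single healthy horse was not detectable at this depth.

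**Figure D2:**
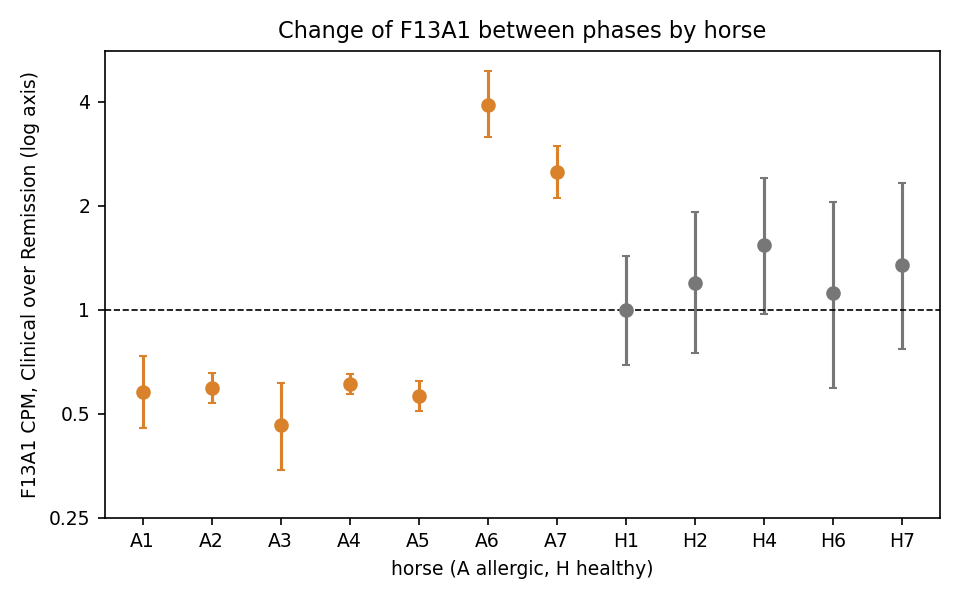
Ratio of F13A1 CPM in the Clinical over the Remission Phase for each horse on a log axis, with exact 95% intervals from the counts (counting error only) and a dashed line at 1. Horses A1 to A5 lie between 0.463 and 0.609, A6 and A7 at 3.91 and 2.50, and the intervals of all 5 healthy horses include 1.

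With total counts the order among allergic horses was A4, A2, A5, A1, A7, A3 and A6 in Remission, and A4, A2, A5, A6, A7, A1 and A3 in the “Clinical Phase”. The 3 highest horses were the same in both phases, with A4 first, and the counting intervals of A2 and A5 overlapped in both, so the order of these 2 is not resolved. Horse A6 came after A5 in the “Clinical Phase” and was among the lowest in Remission, where its counting interval overlapped that of A3, and where A3 was lowest with TMM factors (6.67 CPM against 7.56 CPM in A6). Because the allergic libraries fell into separate clusters, no correlation between the phases is given. The Remission totals of A2, A4 and A5 were 34443749, 32208730 and 25597330 counts, and those of the other allergic horses 17558184 to 40404429. The part of depth in the level was not tested.

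Which other genes follow F13A1 across the allergic horses was then asked in each phase. No gene had a slope on the F13A1 level that passed the edgeR test with adjustment over all genes, 0 of 12665 in Remission (0%) and 0 of 13281 in the “Clinical Phase” (0%), with 211 and 260 genes at an unadjusted p under 0.05. DESeq2 called 1 gene in Remission, whose level was lower where F13A1 was higher, and 0 in the “Clinical Phase”. The 7 libraries of a phase thus named no follower by test, and the genes below are given as a description of likeness. Likeness was Pearson r of log2(CPM + 4) over the 7 allergic libraries of a phase, and the clusters of horses weigh in it.

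Of 12383 genes with a value in both phases, 85 (0.686%) had an r of at least 0.8 in Remission and 83 (0.67%) in the “Clinical Phase”. Only 1 gene (0.00808%) reached it in both, which is 1.18% of the Remission genes and 1.20% of the Clinical genes. With 1 horse left out the number in both was 2 to 9, and the gene was no longer among them without A3, A4, A5 or A7. Without the A6 Remission library it was 3, the gene included. An r of at most -0.8 was found for 38 genes (0.307%) in Remission and 94 (0.759%) in the “Clinical Phase”, and for 0 (0%) in both, but with 1 horse left out the number in both was 1 to 10, highest without A4, and without the A6 Remission library only it was 0. The same horses gave both phases, so these counts are not independent. The 20 genes with the highest Remission r, the lowest of them at 0.896, had a median r of 0.30 in the “Clinical Phase”, and 13 of 20 were over 0, against a median of 0.01 and 50.9% over 0 for all genes. None of the 20 reached 0.8 there. The median fell to 0.01 without horse A2 and to 0.14 with a pseudocount of 0.5, so it rests in part on 1 horse and on the scale. Without the A6 Remission library it was 0.26. Chosen the other way, the 20 highest of the “Clinical Phase” had a median of -0.01 in Remission.

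**Figure D3:**
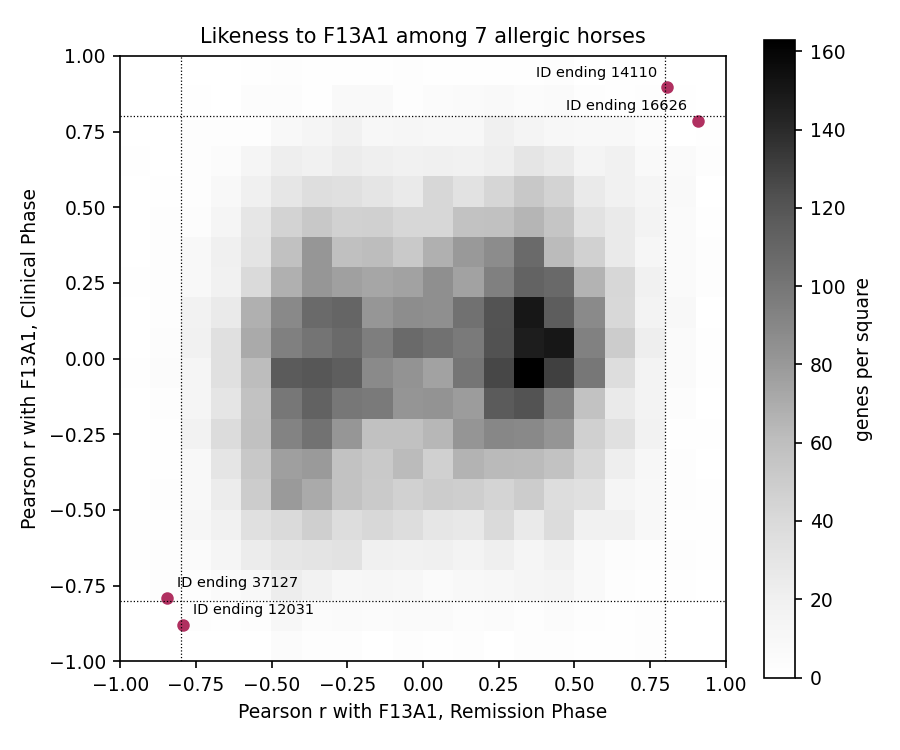
Pearson r with F13A1 over the 7 allergic libraries in Remission (horizontal) and in the Clinical Phase (vertical), as the number of genes per square of 0.1 by 0.1, with dotted lines at 0.8 and -0.8. Red circles are the 4 identifiers most like and most unlike F13A1 in both phases, labelled with the number that ends each identifier. A single circle lies beyond both lines, in the upper right.

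The gene that reached 0.8 in both phases was ENSECAG00000014110, with r of 0.81 in Remission and 0.90 in the “Clinical Phase”. The files pair identifiers with no symbol, so its function is not stated. In Remission it had 13.7 CPM in A4, 9.38 CPM in A5 and 8.33 CPM in A2, and from 5.81 CPM in A6 to 7.93 CPM in A1 in the other allergic horses. In the “Clinical Phase” it ranged from 2.86 CPM in A3 to 11.1 CPM in A4. Both genes were thus highest in A4 in both phases. With TMM factors, the scale of r, both were lowest in A3 in both phases. On that scale the Remission level of ENSECAG00000014110 was higher in A1 than in A2, at 8.79 and 8.34 CPM. F13A1 had 9.17 CPM in A1 and 53.2 CPM in A2 there. Between phases the 2 genes moved in opposite directions between phases in 4 of 7 allergic horses, A2, A5, A6 and A7 with total counts, though the ratios of ENSECAG00000014110 in A2, A5 and A7 were near 1 (1.07, 1.04 and 0.912). In A6, ENSECAG00000014110 had 0.721 times its Remission level in the “Clinical Phase”, when F13A1 had 3.91 times. Without the A6 Remission library the Remission r was 0.81. Without the 2 horses farthest from the median F13A1 level of the phase, r was 0.82 in Remission (A4 and A2 left out). It was 0.68 in the “Clinical Phase” (A3 and A1 left out).

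Between the groups, ENSECAG00000014110 did not share the pattern of F13A1. Healthy horses had 13.95 to 22.99 CPM in Remission, with a median of 16.5, and every allergic library was below every healthy one, as for 193 of 12670 genes (1.52%). The gap was within counting error, since the lowest healthy library, H4, with 428 counts, was 1.02 times the highest allergic one, A4, with 440 counts (95% interval 0.892 to 1.17). With TMM factors A4 was above H4, at 12.9 and 12.6 CPM. The log2 fold change of allergic over healthy horses was -0.87 (SE 0.18), with an adjusted p of 0.392 in edgeR and 0.0135 in DESeq2. In that comparison edgeR called 1 of 12670 genes (0.00789%). The number that DESeq2 called there is not given, so its adjusted p stands without a share over all genes and is not interpreted. In the “Clinical Phase” the groups overlapped, with 6.41 to 17.2 CPM in healthy horses, a log2 fold change of -0.59 (SE 0.33, adjusted p 1.00 in edgeR) and 0 of 13315 genes called (0%).

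ENSECAG00000016626 was the next most alike, with r of 0.91 and 0.79. Its levels were low, from 2.34 CPM in A6 to 4.44 CPM in A4 in Remission and from 2.24 CPM in A1 to 7.23 CPM in A4 in the “Clinical Phase” with total counts. With TMM factors A5 was highest in both phases, and A1 lowest in Remission. Allergic and healthy libraries overlapped in both phases. On the other side, ENSECAG00000012031 had r of -0.79 and -0.88, with 11.2 CPM in A5 to 21.8 CPM in A7 in Remission and 8.86 CPM in A6 to 16.3 CPM in A3 in the “Clinical Phase” with total counts. With TMM factors its highest allergic library of Remission was A6 and its lowest of the “Clinical Phase” was A4. ENSECAG00000037127 had r of -0.85 and -0.79 but at most 10 counts in any allergic library, so its levels are near the limit of detection and its likeness is not interpreted. Without the A6 Remission library the Remission r of these 3 identifiers was 0.89, -0.80 and -0.88. For all 4 identifiers the adjusted p of the slope was 0.97 in Remission and 1.00 in the “Clinical Phase” in edgeR.

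C1R is a protease that starts the classical complement pathway. In Remission every allergic library was above every healthy one for C1R, as for 31 of 12670 genes (0.245%), F13A1 among them. The gap was narrow, with 1.07 CPM from 25 counts in A1 and 1.01 CPM from 35 counts in healthy horse H1. The highest C1R library was not that of F13A1 in either phase. Its Remission level was 18.5 CPM in A7, 5.75 CPM in A6 and 4.58 CPM in A3, where F13A1 was low, and 1.83 CPM in A4, where F13A1 was highest. In the “Clinical Phase” C1R was highest in A3 with 13.8 CPM, the allergic horse with the least F13A1. The lowest level of that phase was 0.129 CPM in A2, from 2 counts, near the limit of detection. Groups overlapped there, since A2 and A5, with 0.804 CPM, were below the healthy median of 1.36 CPM. Other horses did not follow that pattern. A1, low in F13A1, had the lowest C1R among the allergic libraries of Remission, 1.07 CPM. A1 and A4, far apart in F13A1, had 3.52 and 3.59 CPM of C1R in the “Clinical Phase”, from 80 and 79 counts. The mitochondrially encoded genes ATP6, a subunit of ATP synthase, and ND5, a subunit of complex I, had a lower mean in allergic than in healthy horses in both phases and a narrower range among allergic horses than F13A1. ATP6 ranged from 162 to 527 CPM in Remission and from 267 to 553 CPM in the “Clinical Phase” over allergic libraries, and ND5 from 26.0 to 110 CPM and from 114 to 211 CPM. Both Remission minima were in the A6 library, and without it they were 310 CPM in A5 for ATP6 and 64.7 CPM in A1 for ND5. Healthy horse H4 lay within the allergic range of both genes in both phases. For ATP6 it had 526 CPM in Remission and 458 CPM in the “Clinical Phase”. For ND5 it had 104.5 CPM in Remission and 201 CPM in the “Clinical Phase”. The other healthy libraries were above every allergic library of their phase for both genes. KEF40, a further gene the study names as mitochondrial, had a Remission mean of 264 CPM in allergic and 316 CPM in healthy horses. Its medians there were 175 and 319 CPM, and its Clinical means were 236 and 696 CPM. Its log2 fold change of allergic over healthy horses was -0.0020 (SE 0.47) in Remission and -1.53 (SE 0.29) in the “Clinical Phase”, given as a description. With TMM factors, A6 and A1 had 678 and 631 CPM of KEF40 in Remission. The other allergic libraries had 95.8 to 247 CPM on that scale, and healthy libraries 158 to 394 CPM. The near-zero Remission value thus includes the A6 library, and no fold change of KEF40 without it is given. With total counts KEF40 ranged over allergic libraries from 95.8 to 569 CPM in Remission and from 128 to 336 CPM in the “Clinical Phase”.

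**Figure D4:**
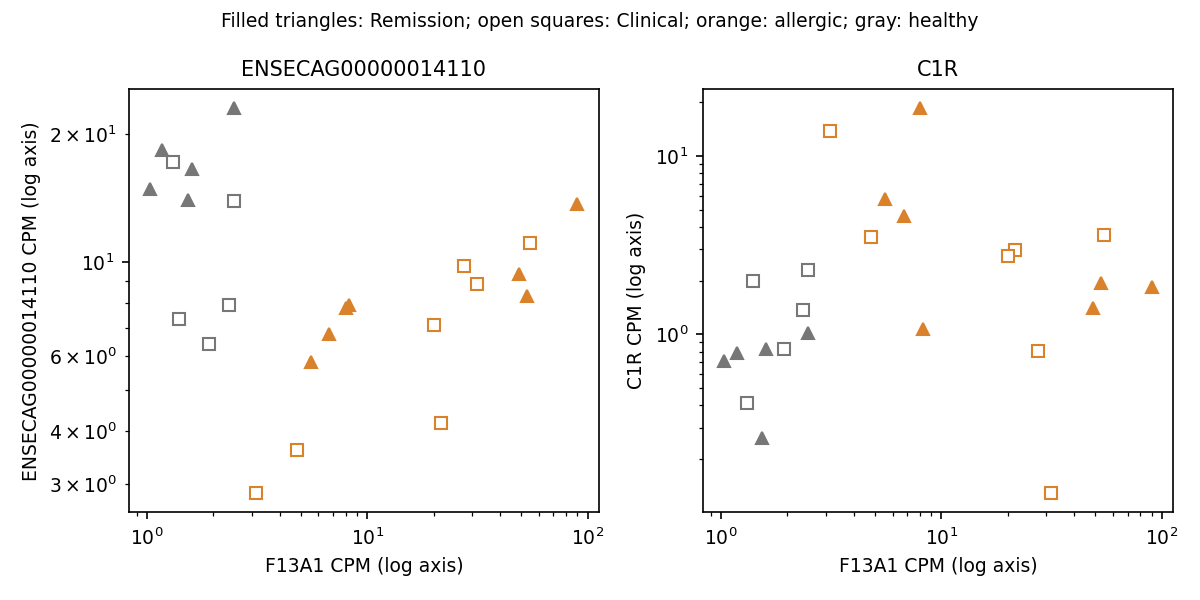
CPM of ENSECAG00000014110 (left) and C1R (right) against CPM of F13A1 in all 24 libraries, on log axes, with filled triangles for Remission, open squares for the Clinical Phase, orange for allergic and gray for healthy horses. On the left, ENSECAG00000014110 is highest in A4 among the allergic libraries of each phase, while healthy libraries of Remission, with little F13A1, lie at 13.95 CPM or above.

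Genes of the fibrin, fibrinolysis and alternative activation pathways, and markers of platelets and other blood cells, could not be read because 0 identifiers of the files matched the reference gene table. Whether RNA of platelets or of other cells moved with F13A1 was therefore not tested.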

How the data were processed

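Per the labels and the study's methods, poly-A RNA was made into directional libraries and read single-end, and the submitters' processing notes name Trim Galore 0.6.0, STAR 2.7.0e, edgeR and the build EquCab3.0. The authors deposited raw counts per gene, without normalization. The sources used here do not state how reads were assigned to genes (tool, strand, annotation release), and overlapping genes could share reads.

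From these counts, CPM and tests were computed in R 4.3.3 with edgeR 4.0.16, and alternatives with DESeq2 1.42.0 and limma 3.58.1. A gene was kept if 1 library or more reached 0.5 CPM. Groups within a phase and slopes used the 12 libraries of the phase for TMM factors, and phases were compared in 1 fit of all 24 libraries, with quasi-likelihood tests and Benjamini-Hochberg adjustment at 0.05. Both tests were tested on simulated data.

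F13A1 and the other names were each matched in a single phase, as the only identifier with the DESeq2 values that the study prints. This is no annotation. Remission values were used for F13A1, C1R, ATP6 and ND5, and Clinical values for KEF40. The printed fold changes were matched as log2 fold changes. In the “Clinical Phase” the DESeq2 log2 fold change of F13A1 was 3.63 here, which is above the printed value. The 2 identifiers with the highest and the 2 with the lowest r in both phases were named by rule. Members and lists were chosen with earlier results of these data known. Some genes the study names are not reported here. Correlations had been planned between phases, with named genes and with library measures, but levels fell into separate clusters and these are not given. Pearson r is used to rank and count genes by likeness and to read genes chosen in a phase in the other phase, with no test.

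The library codes and the study pair the phases by horse. Over 9544 genes, deviations from group means correlated at a mean of 0.213 within a horse and -0.0190 between horses, over 0.1 in 9 of 12 horses, and at -0.181 in H2, -0.159 in A6 and -0.0332 in H6. There were 0 identical pairs of libraries.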

Additional observations from a re-analysis of the deposited data

Results flagged for a closer look

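Of 36 groups of libraries checked over the 9 named genes, 4 held a library far from the others. The check set the gap to the nearest library against the range of the group, on CPM without a log scale. Chance alone marks about 1 in 20 only where levels are normally distributed. CPM can be skewed, so the number marked is not read against that rate. None of the marked groups was a group of F13A1 itself. C1R stood at 18.5 CPM in allergic horse A7 in Remission and at 13.8 CPM in allergic horse A3 in the “Clinical Phase”, 2 libraries in which F13A1 had 8.02 and 3.12 CPM. ENSECAG00000016626 was at 6.03 CPM in healthy horse H4 in Remission, and ENSECAG00000037127 at 1.15 CPM in healthy horse H2 in Remission.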

How the results depend on the processing

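The comparison of phases for F13A1 kept its direction and stayed over an adjusted p of 0.05 in all 18 alternatives in each group, horse as a replicate block (-0.21 in allergic and 0.38 in healthy horses) and each horse left out among them. The log2 fold changes ranged from -0.66 to -0.21 in allergic and from 0.29 to 0.49 in healthy horses. The description of allergic over healthy horses ranged from 3.94 to 4.66 in Remission and from 3.29 to 3.82 in the “Clinical Phase” over 16 alternatives. The block changed no call of F13A1, while the number of genes called between phases went from 1325 to 726 in allergic and from 182 to 126 in healthy horses. DESeq2 called 1832 and 523, and limma voom 986 and 1440. The slope tests called 0 genes in all alternatives except DESeq2 in Remission, which called 1. The number of genes with an r of at least 0.8 in both phases was 2 with CPM of total counts, 4 with Spearman rho, and 2 to 9 with 1 horse left out, among which ENSECAG00000014110 was present without A1, A2 or A6 and absent without A3, A4, A5 or A7. The number at -0.8 or below was 1 with Spearman rho and 1 to 10 with 1 horse left out. Without the A6 Remission library only, chosen after seeing the data, 3 genes reached 0.8. The median Clinical r of the 20 genes highest in Remission ranged from 0.01 to 0.44 with 1 horse left out and was 0.14 with a pseudocount of 0.5, and the 20 genes chosen in the “Clinical Phase” had a median of -0.0050 in Remission. The causes were not tested. The alternatives planned for a correlation of the level between phases were not run, since the libraries fell into separate clusters. Healthy libraries held 19 to 86 counts of F13A1, which limits their values.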
